A study of Homo sapiens with 6 samples.

Results

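The mitochondrial ribosome translates the few proteins that mitochondrial DNA encodes, all of them parts of the respiratory chain or ATP synthase. Its small subunit binds the mRNA and decodes it on a scaffold of 12S rRNA, which the mitochondrial genome supplies. The proteins of the subunit are all encoded in the nucleus, made in the cytosol and imported. Genes were taken as members where their symbol was MRPS with a number and at most one letter from A to C, and DAP3, PTCD3, AURKAIP1 and CHCHD1, small subunit proteins with other names, were added. This gave 33 genes among 57688 rows, of which 32 had a mean of at least 1 FPKM (fragments per kilobase of gene, scaled to sequencing depth, a level per length) and were tested.

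The cells were WM3248, a line from a primary melanoma in the vertical growth phase, transfected at 30 nM with a lipid reagent and harvested after 48 h. The siNC group (n = 3 libraries) received a commercial negative control siRNA, and the siPGC1a group (n = 3) 1 siRNA against PPARGC1A, which encodes PGC1-alpha, a coactivator of transcription known for its hold on nuclear genes of mitochondria. The labels do not state that replicates were cultured separately. The p-values therefore reflect the variation among these libraries alone, which may be technical. With 1 siRNA against the target, effects of its sequence and of the lower PPARGC1A transcript cannot be told apart.

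PPARGC1A itself stood at 0.932, 1.04 and 0.947 FPKM with siNC, against 0.400, 0.354 and 0.413 FPKM with siPGC1a. No siPGC1a value reached the lowest siNC value, and the ratio of mean FPKM was 0.400. Fold changes were fitted as differences of log2(FPKM + 1), a scale that understates the change of a gene this low (log2 fold change -0.51, SE 0.066, limma adjusted p = 0.000234). With a pseudocount of 0.1 in place of 1 the value was -1.14. Recovered depth was 25180000 to 26440000 reads per library. Of 8 melanocyte markers, 7 had a mean of at least 1 FPKM, with SOX10 and DCT the most abundant, while MLANA and TYR were below 2 FPKM. Their summed level was 647.2 to 669.3 FPKM in siNC and 476.7 to 516.3 FPKM in siPGC1a. The markers did not move alike. DCT stood at 382.8 to 405.1 FPKM in siNC and 245.4 to 267.6 FPKM in siPGC1a, and MITF, PMEL, MLANA and TYR were lower without overlap. For SOX10 (236.6 to 257.1 and 216.6 to 239.1 FPKM), PAX3 and TYRP1 the groups overlapped. Fibroblast markers summed to 16.3 to 17.3 and 10.7 to 12.2 FPKM, and 4 of 6 had a mean of at least 1. Of 5 keratinocyte markers only KRT10 did so, with KRT5 at 0 in 5 of 6 libraries and KRT1 at 0 in all. Of 5 immune markers only LYZ did so, and PTPRC was at 0 in all libraries. The endothelial markers analysed were at most 0.191 FPKM. Fewer cells of a type and less RNA per cell cannot be told apart in these bulk samples. The part of these markers in the results for the members was not tested.

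Transcripts of most small subunit proteins were more abundant after PPARGC1A was targeted, by modest amounts. Of the 32 tested members, 23 were higher in siPGC1a (71.9%), 1 was lower and 8 did not pass (limma adjusted p under 0.05). Among all 12020 genes tested, 25.6% were higher and 22.5% lower. The median log2 fold change was 0.22 over the members and 0.01 over all tested genes, on the same log2(FPKM + 1) scale. Ratios of mean FPKM among the called rises ran from 1.08 to 1.403, with a median of 1.25. No member reached a fold change of 0.5 in either direction on that log2 scale. All siPGC1a values lay above all siNC values for 24 members, against 29.8% of tested genes, and below them for 0 members, against 27.4%. With a stricter filter (mean of at least 5 FPKM) 20 of 29 members were higher, and 2519 of 7272 genes in all. The median log2 fold changes there were 0.19 over the members and 0.05 over all tested genes.

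The only member called lower, MRPS36, is not a ribosomal protein by current naming: RefSeq lists it as KGD4, a subunit of the 2-oxoglutarate dehydrogenase complex of the TCA cycle. MRPS18A and MRPS30, in turn, sit in the large subunit. Without these 3, 22 of 29 tested small subunit proteins were higher and 0 were lower by limma (0 at an unadjusted p under 0.05). With quantile scaling MRPS14 and MRPS35 were called lower. Those with a counterpart in the bacterial small subunit gave 13 higher and 2 not past of 15 (median log2 fold change 0.26). Those without one gave 9 higher and 5 not past of 14 (median 0.17). A difference between these 2 classes was not tested.

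**Figure D1:**
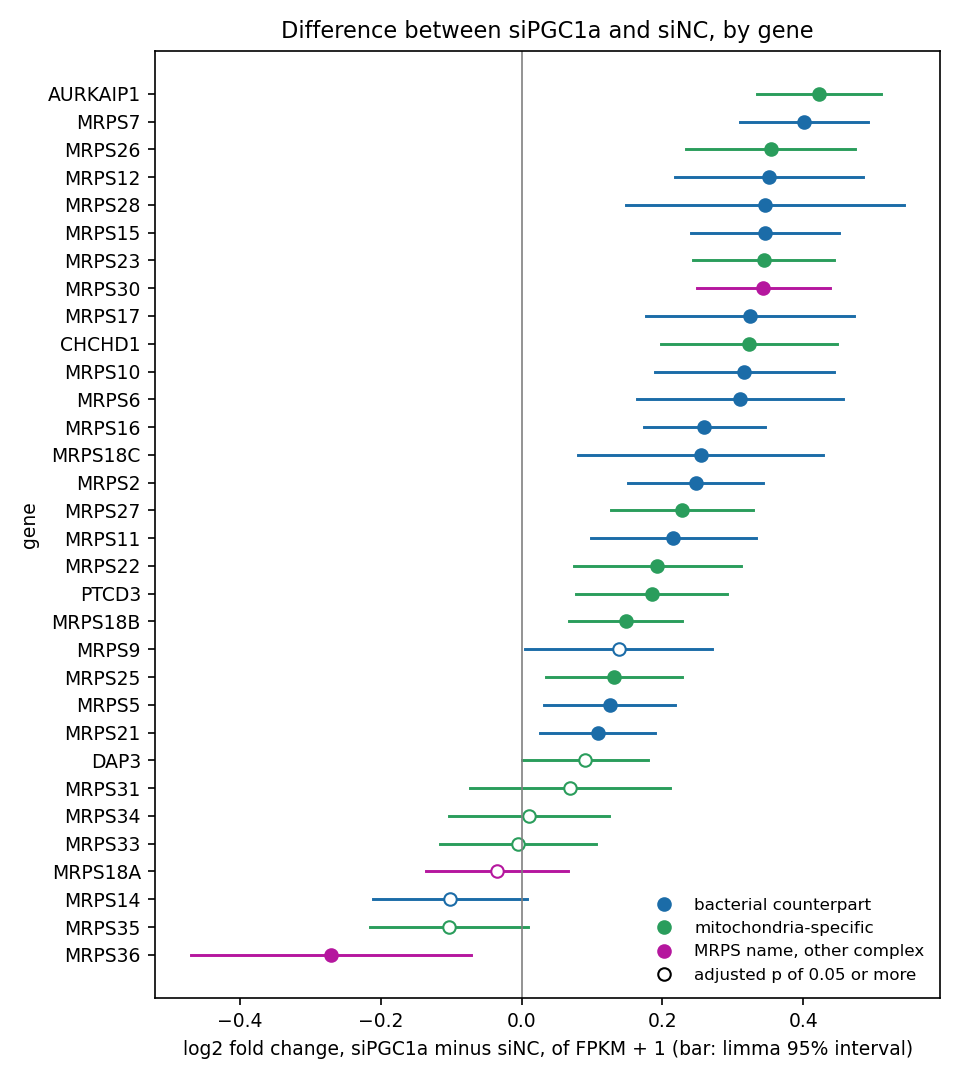
Log2 fold change of FPKM + 1 (siPGC1a minus siNC) with limma's 95% interval for each of the 32 tested members, coloured by class and filled where the adjusted p was under 0.05. Filled points to the right of 0 number 23, from MRPS21 at 0.11 to AURKAIP1 at 0.42, and MRPS36 at -0.27 is the filled point to the left.

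Promoters of nuclear genes for mitochondrial proteins are known for sites of a few factors, among them the ETS factor GABP (also called NRF2), NRF1, YY1 and ESRRA, several of which work with PGC1-alpha. RefSeq windows from 250 bases before to 50 after the start site (GRCh38.p14) matched 32 of 33 members, MRPS36 under the symbol KGD4. MRPS28 was not matched. Stretches from 80 bases before to 40 after the start are shown for members that show the motifs or their absence best: AURKAIP1, MRPS26 and MRPS12 for large rises with an ETS match, MRPS10 for an ETS and a YY1 match together, and MRPS30 and MRPS18B for a YY1 match alone. MRPS34 is shown for 3 ETS matches without a called change, MRPS7 for a large rise with no exact match and MRPS36 for the fall. Only exact words were counted as matches. Capitals mark the ETS word CCGGAAG or its complement CTTCCGG, and the YY1 word AAGATGGCG.
AURKAIP1, chr1:1375168-1375287, minus strand: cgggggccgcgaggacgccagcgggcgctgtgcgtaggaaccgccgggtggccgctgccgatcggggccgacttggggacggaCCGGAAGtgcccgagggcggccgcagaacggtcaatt
MRPS26, chr20:3045972-3046091, plus strand: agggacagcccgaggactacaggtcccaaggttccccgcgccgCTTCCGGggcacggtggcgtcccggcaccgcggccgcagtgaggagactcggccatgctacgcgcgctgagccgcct
MRPS12, chr19:38930864-38930983, plus strand: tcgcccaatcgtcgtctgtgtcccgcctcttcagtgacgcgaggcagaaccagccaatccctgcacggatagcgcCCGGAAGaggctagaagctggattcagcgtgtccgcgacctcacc
MRPS10, chr6:42217822-42217941, minus strand: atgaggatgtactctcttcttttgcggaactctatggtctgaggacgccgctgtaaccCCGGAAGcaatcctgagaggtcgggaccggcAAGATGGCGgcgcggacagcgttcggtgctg
MRPS30, chr5:44808867-44808986, plus strand: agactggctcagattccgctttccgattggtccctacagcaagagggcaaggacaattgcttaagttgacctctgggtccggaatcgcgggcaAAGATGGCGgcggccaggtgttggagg
MRPS18B, chr6:30617760-30617879, plus strand: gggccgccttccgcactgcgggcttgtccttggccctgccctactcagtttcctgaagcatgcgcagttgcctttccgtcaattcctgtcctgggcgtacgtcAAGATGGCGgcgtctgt
MRPS34, chr16:1773095-1773214, minus strand: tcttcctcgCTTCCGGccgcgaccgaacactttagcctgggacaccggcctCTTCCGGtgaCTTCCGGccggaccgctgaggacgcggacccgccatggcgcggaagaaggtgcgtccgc
MRPS7, chr17:75261799-75261918, plus strand: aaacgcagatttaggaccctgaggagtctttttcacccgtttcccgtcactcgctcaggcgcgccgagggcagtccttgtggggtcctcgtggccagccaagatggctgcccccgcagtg
MRPS36, chr5:69217680-69217799, plus strand: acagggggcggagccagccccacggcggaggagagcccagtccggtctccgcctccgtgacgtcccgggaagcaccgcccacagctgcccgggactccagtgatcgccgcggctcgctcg

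Searched on both strands of the whole windows, the ETS word was present in 13 of 32 members (40.6%). It was in 20.4% of the 9247 tested genes with a window and 10.7% of all 27305 genes with one. Of its 18 matches in members, 14 began within 40 bases of the start site. The YY1 word was in 6 members (18.8%), against 4.27% of the same tested genes and 1.85% of all. Each of its matches lay on the gene's own strand and began 10 to 24 bases after the start, within the transcribed part. An NRF1 motif, GCGC, any base and then TGCGC, was in 2 members, MRPS9 and MRPS33 (6.25%), against 12.5% of tested genes and 6.28% of all. ESRRA's word TCAAGGTCA was in 0 members, 0.184% of tested genes and 0.359% of all. None of the 4 motifs contains another.

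Called rises occurred among members with the ETS or YY1 word and among members with no match. Of the 13 tested members with the ETS word, 9 were higher (median log2 fold change 0.25), as were 4 of 5 with the YY1 word (median 0.18) and 0 of 2 with the NRF1 motif (median 0.07). Of the 14 with a window but no exact match, 10 were higher (median 0.22). MRPS7 and MRPS27, both in this group and called higher, hold AAGATGGCT, which differs from the YY1 word in its last base. MRPS14, also in this group and not called, holds AACATGGCG, which differs in a single base as well. So does MRPS9, which has the NRF1 motif and was not called. Near matches were not counted. MRPS10 and MRPS18A both hold an ETS and a YY1 match at nearly the same places. MRPS10 rose, and MRPS18A stood at 35.9 and 35.05 FPKM. These counts describe letters in a window, and binding was not measured.

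**Figure D2:**
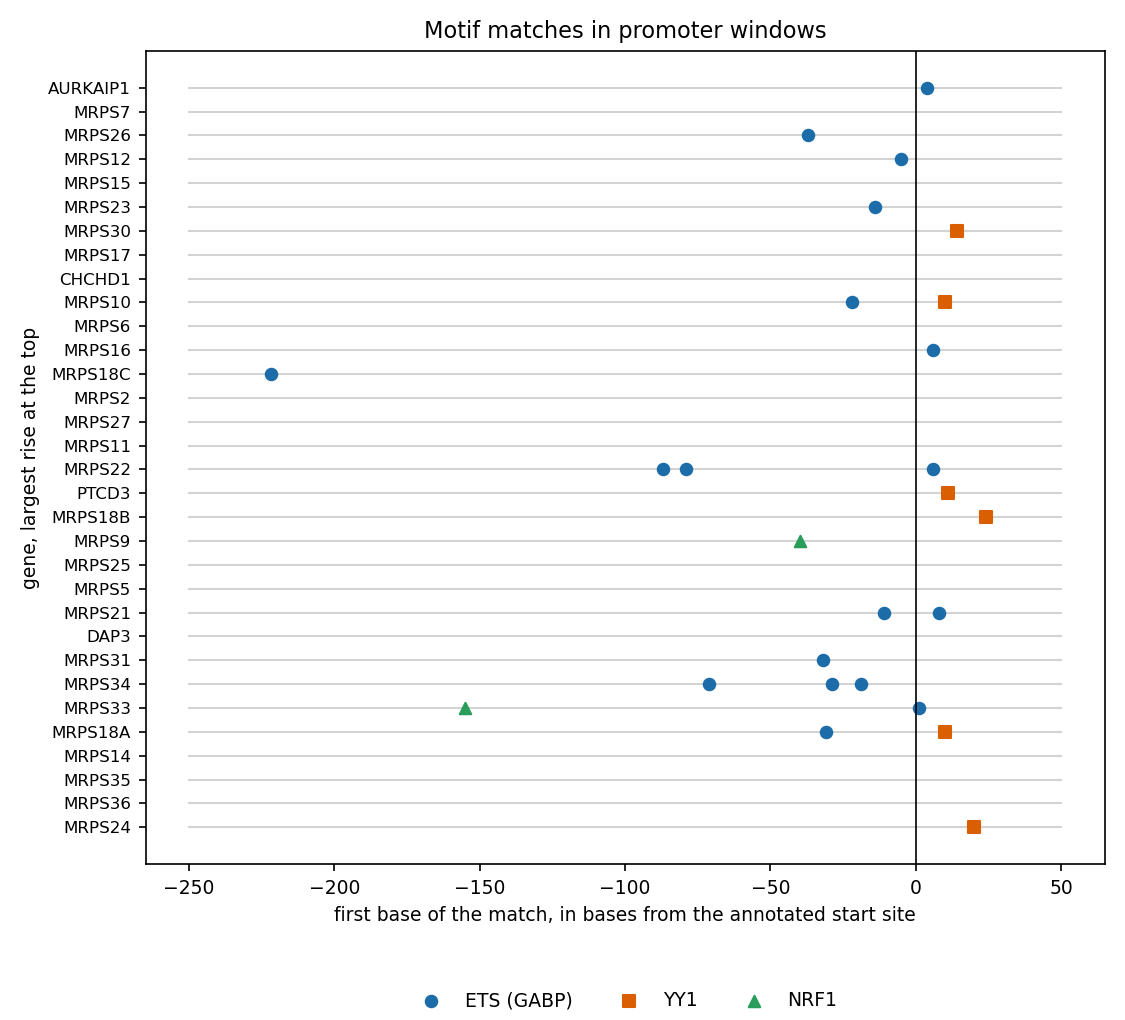
First base of each motif match, in bases from the annotated start site, for the 32 members with a RefSeq promoter window, ordered by log2 fold change with the largest rise at the top and the untested MRPS24 last. Circles (ETS) gather around the start, squares (YY1) lie 10 to 24 bases after it, and both occur in members that rose and in members that did not pass.

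Levels differed far more between members than between the groups. In siNC the mean ran from 1.69 FPKM for MRPS17 to 99.0 FPKM for MRPS18B among tested members, a 58.7-fold range, although each protein is thought to be present once in the finished subunit. MRPS17 and MRPS28 share exon bases with other genes on their strands, so the low end of this range is uncertain. The 6 members most abundant in siNC, MRPS18B, MRPS26, MRPS34, AURKAIP1, MRPS21 and MRPS18A, held 54.6 ± 1.16% of the members' summed FPKM in siNC and 54.2 ± 1.32% in siPGC1a (SD, n = 3), where MRPS6 and MRPS16 stood above MRPS18A. The order of levels was nearly the same in both groups (Spearman's rho 0.982 over 32 members, which share the same libraries), and no member moved by more than 4 ranks. Neither level nor length went with the fold change of FPKM + 1 across these members (rho 0.0026 with the siNC level and 0.061 with exon length). That scale understates changes at low levels. By ratio of mean FPKM the lowest tested members, MRPS17 (1.403) and MRPS28 (1.39), rose most, and a correlation of level with this ratio was not computed.

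**Figure D3:**
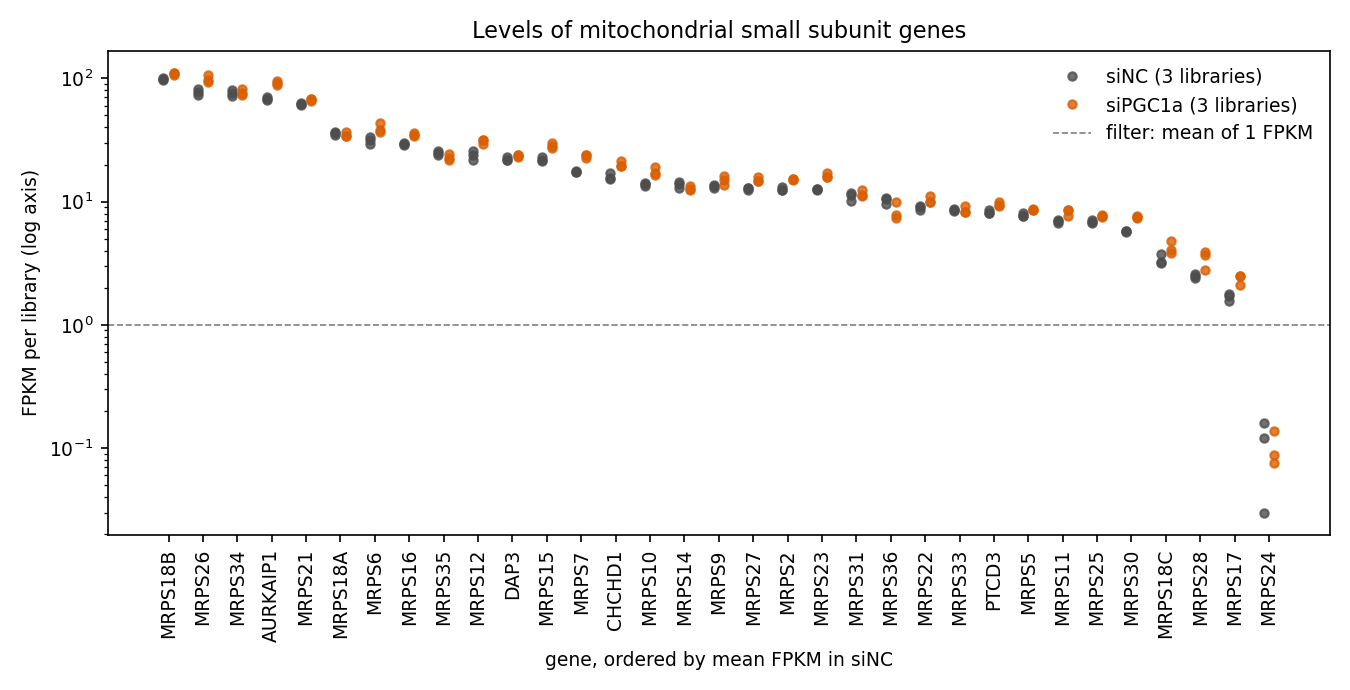
FPKM of each member in every library on a log axis, ordered by mean level in siNC, with grey points for siNC and orange for siPGC1a (3 libraries each). MRPS18B is highest, MRPS17 is the lowest tested member, and MRPS24 lies below the dashed line at a mean of 1 FPKM.

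AURKAIP1, a small subunit protein also known as a negative regulator of Aurora-A kinase, had the largest fold change on the log2(FPKM + 1) scale. The order changed with the setting. By ratio of mean FPKM, MRPS17 (1.403) and MRPS28 (1.39) came before AURKAIP1 (1.35) and MRPS7 (1.34), and MRPS17 and MRPS28 were also first with a pseudocount of 0.1 (log2 fold changes 0.46 and 0.45). MRPS28 was first with quantile scaling (0.39) and without siPGC1a replicate 1 (0.46). AURKAIP1 stood at 66.8, 70.3 and 68.6 FPKM with siNC, against 89.2, 95.05 and 92.4 FPKM with siPGC1a. Every siPGC1a library lay above every siNC library, and the mean rose by that ratio (log2 fold change 0.42, SE 0.039, limma adjusted p = 3.4e-05). MRPS26, another mitochondria-specific protein, was among the most abundant members and rose as well. Its values were 73.6, 77.8 and 81.3 FPKM with siNC, against 94.2, 106.4 and 97.8 FPKM with siPGC1a, again without overlap (log2 fold change 0.35, SE 0.054, limma adjusted p = 0.000559). MRPS18B, which belongs to the S18 family but has a place of its own in the subunit, had the highest level. It measured 96.9, 98.8 and 101.4 FPKM with siNC, against 107.2, 111.1 and 111.1 FPKM with siPGC1a. That is a rise of 10.9% with separate groups (log2 fold change 0.15, SE 0.036, limma adjusted p = 0.00774), which did not pass with quantile scaling (adjusted p = 0.0832).

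MRPS34, needed for the stability of the small subunit, was nearly as abundant and did not pass. It stood at 72.5, 79.9 and 76.7 FPKM with siNC, against 73.2, 81.5 and 76.2 FPKM with siPGC1a. The groups overlapped throughout (log2 fold change 0.01, SE 0.051, limma adjusted p = 0.871; 95% interval -0.10 to 0.12). Its sign turned with quantile scaling (-0.10).

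MRPS7, the counterpart of the bacterial head protein S7, came next on the log2(FPKM + 1) scale. Its values were 17.3, 17.4 and 17.9 FPKM with siNC, against 22.6, 23.9 and 23.9 FPKM with siPGC1a. The 2 groups lay apart by more than the range within either (log2 fold change 0.40, SE 0.041, limma adjusted p = 5.48e-05). MRPS12, the counterpart of S12 at the decoding centre, rose 1.29-fold. It stood at 21.96, 25.7 and 24.1 FPKM with siNC, against 29.1, 31.4 and 31.8 FPKM with siPGC1a, without overlap (log2 fold change 0.35, SE 0.059, limma adjusted p = 0.00106). MRPS15, which binds the rRNA early in assembly in its bacterial form, stood at 23.1, 21.4 and 21.9 FPKM with siNC, against 27.2, 28.3 and 29.7 FPKM with siPGC1a. It too rose with separate groups (log2 fold change 0.35, SE 0.047, limma adjusted p = 0.000303).

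MRPS17, MRPS24 and MRPS28 had the lowest levels. MRPS28, a relative of bacterial S1, stood at 2.60, 2.39 and 2.48 FPKM with siNC, against 2.80, 3.69 and 3.89 FPKM with siPGC1a. The groups did not overlap, but siPGC1a replicate 1 lay close to the highest siNC value (log2 fold change 0.35, SE 0.088, limma adjusted p = 0.0096), and the call ended without a filter on low genes (adjusted p = 0.0749). MRPS17, the counterpart of S17, stood at 1.78, 1.56 and 1.72 FPKM with siNC, against 2.48, 2.12 and 2.50 FPKM with siPGC1a (log2 fold change 0.32, SE 0.066, limma adjusted p = 0.00293). By its exon length in the reference annotation MRPS17 had about 86 to 141 reads per library. These values were not whole numbers, so they are approximate. MRPS24, the counterpart of S3, stood at 0.160, 0.120 and 0.0300 FPKM with siNC, against 0.0750, 0.137 and 0.0880 FPKM with siPGC1a, and it was below the filter and not tested. The reference annotation has a longer gene on the same strand, URGCP-MRPS24, that shares 23.2% of the exon bases of MRPS24 and is listed at 0 in every library. How reads that fit both were counted is not given in the sources used here, so the low value of MRPS24 need not be its transcript level. MRPS28 shares 35.8% of its exon bases with AC036214.3 on the same strand, which is also listed at 0. The same limit holds for the values of MRPS28.

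Among the other members with a bacterial counterpart, rises were of 7.90 to 26.5% in mean FPKM. MRPS6 rose from 31.5 ± 2.09 to 39.4 ± 3.34 FPKM (SD, n = 3; adjusted p by limma 0.00358) and MRPS10 from 13.9 ± 0.509 to 17.5 ± 1.36 FPKM (SD, n = 3; adjusted p by limma 0.00151). MRPS16, in which mutations cause a combined respiratory chain deficiency, rose from 29.2 ± 0.387 to 35.2 ± 0.957 FPKM (SD, n = 3; adjusted p by limma 0.000484). MRPS2 rose from 12.7 to 15.2 FPKM, MRPS11 from 6.94 to 8.22 FPKM and MRPS18C from 3.36 to 4.21 FPKM (adjusted p by limma 0.00124, 0.0074 and 0.0223).

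The smallest called rises were those of MRPS21, from 62.0 to 66.9 FPKM, and MRPS5, from 7.79 to 8.58 FPKM (adjusted p by limma 0.033 and 0.0316). For each, leaving out any 1 of 5 libraries ended the call. MRPS21 missed the threshold without siNC replicate 1, 2 or 3 (adjusted p = 0.116, 0.0739 and 0.0701), without siPGC1a replicate 2 or 3 (0.0823 and 0.0615) and with 3 other settings. For MRPS5 this held without siNC replicate 2 or 3 (0.0973 and 0.117) and without siPGC1a replicate 1, 2 or 3 (0.0719, 0.0505 and 0.0632). MRPS18C lost its call without siNC replicate 2 or 3 (0.0728 and 0.0705), without siPGC1a replicate 3 (0.0674) and without a filter. MRPS9 and MRPS14, both counterparts of head proteins, did not pass. MRPS9 stood at 13.4 ± 0.399 and 14.8 ± 1.28 FPKM (SD, n = 3; adjusted p by limma 0.0813), and it was called higher without siPGC1a replicate 2 (0.0133) and with sample weights (0.0235). MRPS14 stood at 13.8 ± 0.690 and 12.8 ± 0.472 FPKM (SD, n = 3; adjusted p by limma 0.114), and it was called lower with quantile scaling (0.0466) and sample weights (0.0489).

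Of the mitochondria-specific proteins not yet described, the 2 with the smallest adjusted p were MRPS23 and CHCHD1. CHCHD1, a small protein with paired cysteine motifs, rose from 15.9 ± 0.949 to 20.1 ± 1.18 FPKM (SD, n = 3; adjusted p by limma 0.0012), and MRPS23 rose from 12.6 ± 0.151 to 16.3 ± 0.770 FPKM (SD, n = 3; adjusted p by limma 0.000233). The 2 pentatricopeptide repeat proteins of the subunit, a family that binds RNA, both rose. MRPS27 went from 12.8 to 15.1 FPKM and PTCD3, which sits where mRNA enters, from 8.22 to 9.49 FPKM (adjusted p by limma 0.00254 and 0.0103). MRPS22, mutated in a combined respiratory chain deficiency, went from 8.89 to 10.3 FPKM and MRPS25 from 6.88 to 7.63 FPKM (adjusted p by limma 0.0138 and 0.0297). MRPS22 did not pass without siNC replicate 3 (0.0643), and MRPS25 did not without siNC replicate 1 or 3 (0.0672 and 0.125) or siPGC1a replicate 1 or 2 (0.0597 and 0.0792).

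DAP3, a GTP-binding protein of the head also known as a promoter of cell death, stood at 21.8, 21.8 and 22.9 FPKM with siNC, against 23.2, 24.0 and 23.9 FPKM with siPGC1a. The siPGC1a values were all above the siNC values, yet the difference of 0.09 did not pass (SE 0.04, limma adjusted p = 0.09). MRPS31 stood at 11.0 ± 0.893 and 11.6 ± 0.721 FPKM, MRPS33 at 8.57 ± 0.147 and 8.54 ± 0.510 FPKM and MRPS35 at 24.8 ± 0.899 and 23.1 ± 1.33 FPKM (SD, n = 3; adjusted p by limma 0.395, 0.943 and 0.117). MRPS35 was called lower without siPGC1a replicate 3 (adjusted p = 0.0297) and with quantile scaling (0.0327).

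The 3 genes whose names place them wrongly had 3 different calls. MRPS30, a large subunit protein, stood at 5.81, 5.63 and 5.74 FPKM with siNC, against 7.48, 7.43 and 7.71 FPKM with siPGC1a. It rose with little spread in either group (log2 fold change 0.34, SE 0.042, limma adjusted p = 0.000174). MRPS18A, also of the large subunit, stood at 34.6, 37.0 and 36.2 FPKM with siNC, against 34.0, 36.8 and 34.4 FPKM with siPGC1a, with overlapping groups (log2 fold change -0.03, SE 0.045, limma adjusted p = 0.554). MRPS36 stood at 10.7, 9.55 and 10.5 FPKM with siNC, against 7.38, 7.85 and 9.88 FPKM with siPGC1a. In siPGC1a replicate 3 it lay within the siNC range, while the other 2 siPGC1a values were lower than all siNC values (log2 fold change -0.27, SE 0.089, limma adjusted p = 0.0299). Its call ended without siNC replicate 1 or 3 (0.0781 and 0.0778), without siPGC1a replicate 1 or 2 (0.112 and 0.0792) and without a filter (0.157). The exact two-sided permutation p was 0.2 for MRPS36 and 0.1 for each member with separate groups, the smallest that 3 against 3 can give.

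Summed over the 33 members, levels were higher in siPGC1a. The sums were 759.4, 769.0 and 774.4 with siNC, against 856.3, 897.2 and 906.3 with siPGC1a (FPKM), with means of 767.6 ± 7.64 and 886.6 ± 26.6 FPKM (SD, n = 3). The groups did not overlap. Large subunit genes, chosen by MRPL symbols and 2 further names, summed to 1140.6 ± 17.8 and 1330.3 ± 49.2 FPKM (SD, n = 3). The ratio of small to large subunit sums was 0.678, 0.670 and 0.671 with siNC, against 0.671, 0.669 and 0.660 with siPGC1a, with the highest siPGC1a ratio inside the siNC range. By the naming rule the small subunit sum holds MRPS18A, MRPS30 and MRPS36. The large subunit sum lacks MRPS18A and MRPS30, although both sit in the large subunit. A ratio with these genes moved was not computed. Both sums also share the libraries' scaling. The siPGC1a libraries were not equal to each other: 20 of 32 tested members were highest in siPGC1a replicate 3, 8 in replicate 2, 0 in replicate 1 and 4 in an siNC library. Without siPGC1a replicate 3, 20 members were higher and 2 lower.

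**Figure D4:**
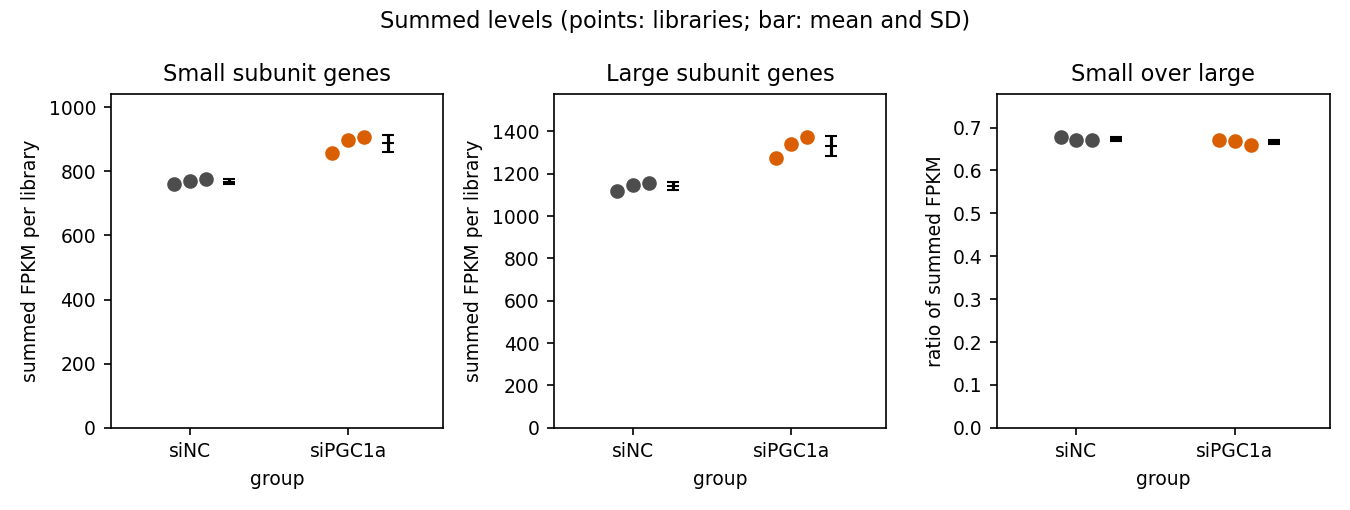
Summed FPKM per library of the small subunit genes and of the large subunit genes, and their ratio, with points for libraries and a bar for the mean and SD (n = 3 per group). Genes are grouped by name, so MRPS18A, MRPS30 and MRPS36 count with the small subunit. Both sums are higher in each siPGC1a library than in any siNC library, and the ratio stays between 0.660 and 0.678.

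Of 47 tested large subunit genes, 31 were higher and 1 lower, and 15 did not pass (median log2 fold change 0.20). Genes of the cytosolic small subunit, which translates nuclear mRNAs, gave 1 higher, 2 lower and 29 not past of 32 (median 0.03). Cytosolic genes have many processed copies, so their counts are uncertain. The difference between these lists was not tested. Members were shorter than other genes, with a median of 2529 exon bases against 4777. Among the 2401 tested genes no longer than that median, 28.0% were higher (median log2 fold change 0.03), against 25.1% of longer ones (0.0013).

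**Figure D5:**
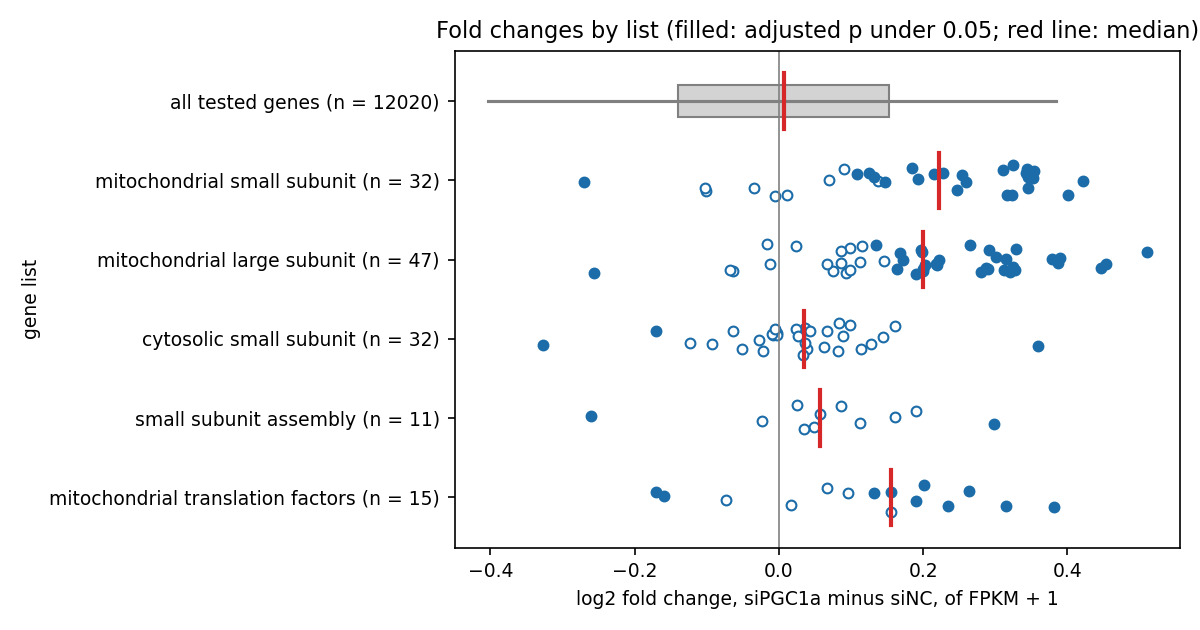
Log2 fold changes of FPKM + 1 by gene list, with filled points for an adjusted p under 0.05 and a red line at each median. For all tested genes the box spans the quartiles and the line the 5th to 95th percentile. The medians are 0.22 for the small and 0.20 for the large mitochondrial subunit, and 0.03 for the cytosolic small subunit.

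A further list held proteins that modify 12S rRNA or assemble the subunit. Of 11 tested assembly genes, 1 was higher, 1 lower and 9 did not pass (median log2 fold change 0.06). METTL17, an assembly factor of the small subunit, rose from 19.5 ± 0.632 to 24.3 ± 1.24 FPKM (SD, n = 3; adjusted p by limma 0.000739), and NOA1, a GTPase of mitoribosome assembly, fell from 17.8 ± 0.665 to 14.7 ± 0.637 FPKM (SD, n = 3; adjusted p by limma 0.00154). TFB1M, which methylates 12S rRNA, stood at 3.03 and 3.51 FPKM, ERAL1, its chaperone, at 26.8 and 27.3 FPKM and FASTKD2 at 4.13 and 4.86 FPKM (adjusted p by limma 0.0714, 0.663 and 0.0562). RBFA was below the filter, at 0.902 and 1.08 FPKM.

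Of 15 tested translation factors and mRNA-binding partners of the mitoribosome, 8 were higher, 2 lower and 5 did not pass (median log2 fold change 0.16). OXA1L, which inserts new proteins into the inner membrane, rose from 51.2 ± 0.588 to 60.4 ± 0.501 FPKM, and SLIRP, which protects mitochondrial mRNAs together with LRPPRC, rose from 35.3 ± 0.378 to 46.4 ± 4.19 FPKM (SD, n = 3; adjusted p by limma 0.000468 and 0.000652). The initiation factors went apart. MTIF2, which brings the initiator tRNA, went from 18.5 to 20.7 FPKM, and MTIF3, which acts on the small subunit itself, fell from 27.7 to 24.5 FPKM (adjusted p by limma 0.0233 and 0.0208). GFM2, which splits the ribosome after termination, fell from 14.5 to 12.8 FPKM (adjusted p by limma 0.0301). MTIF3 missed the threshold without siNC replicate 3 (0.0628) or siPGC1a replicate 1 or 2 (0.0575 and 0.0653), GFM2 without siNC replicate 1 (0.105) or siPGC1a replicate 1 or 2 (0.0856 and 0.0727), and MTIF2 without siNC replicate 2 or 3 (0.0698 and 0.0936) or siPGC1a replicate 1 or 3 (0.0834 and 0.0523).

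Several members start next to a gene on the other strand. In the reference annotation 7 tested genes start within 1000 bases of a member on the opposite strand, and 0 of them passed the threshold by limma (0 at an unadjusted p under 0.05), while 6 of the 7 members did. SARS2, the mitochondrial seryl-tRNA synthetase beside MRPS12, was at 2.37 and 2.43 FPKM (adjusted p by limma 0.808). GGA3, beside MRPS7, had a log2 fold change of 0.0055 and POLR1A, beside PTCD3, of 0.02 (adjusted p by limma 0.929 and 0.77). The others were PPP1R10, HELQ, PTCD2 and EME2, beside MRPS18B, MRPS18C, MRPS27 and MRPS34, with fold changes of -0.11 to 0.09. The difference between a member and its neighbour was not tested. Exons of 9 members overlap a tested gene on the other strand, among them MRPS7, MRPS12, MRPS14, MRPS18C and MRPS25, and those of 4, MRPS5, MRPS6, MRPS16 and MRPS17, one on the same strand. The sources used here give no strand setting for the counting, so these members' values may hold reads of the partner. Processed copies are listed for 16 members, and the highest of them, of MRPS31, had a mean of 0.937 FPKM.

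The annotated 3' UTRs were searched for the 6-base word ACACCT. It was present in 43.2% of lower, 19.5% of higher and 28.8% of all tested genes with a searched 3' UTR. Of 31 members with one, 9 held the word (29.03%). These were MRPS11, MRPS16, MRPS18B, MRPS18C, MRPS25, MRPS33, MRPS35, MRPS36 and PTCD3, the last with 4 places. Their median log2 fold change was 0.15, against 0.31 for members without the word and -0.05 and 0.04 for all tested genes with and without it. MRPS36, the member that fell, holds it once, and so do MRPS16 and MRPS18C, which rose (log2 fold changes 0.26 and 0.25). A longer 3' UTR has more places for a 6-base word. The searched 3' UTRs ran from 601 (MRPS18B) to 4601 bases (PTCD3) in members with the word. In members without it they ran from 35 (MRPS22) to 5005 bases (MRPS23). Shares and medians were not adjusted for length, and the part of the word in these values was not tested.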

How the data were processed

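RNA sequencing values were deposited as FPKM, computed by the authors per gene and library. Per the submitters' processing notes the tools were STAR, Picard, featureCounts and DESeq2 on hg19; versions, annotation and strand setting are not given in the sources used here. A stranded mRNA kit and single reads were used, per the labels. The table held 57688 rows, 26707 of them at 0 throughout, and 0 genes of the mitochondrial genome, so 12S rRNA was not analysed here.

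Values were taken as log2(FPKM + 1). Genes with a mean of at least 1 FPKM, and PPARGC1A, were compared with limma 3.58.1 (limma-trend, R 4.3.3, two-sided, Benjamini-Hochberg over 12020 genes, threshold 0.05) on all 6 libraries. Members and lists were chosen with earlier results of these data known. Values in every library are given for the 6 largest called rises, called falls, the 3 highest and 2 lowest members, the 3 with misleading names and PPARGC1A. Alternatives were median-of-ratios and quantile scaling, a pseudocount of 0.1, no filter or a mean of at least 5 FPKM, limma's weights per library (sample weights), a replicate block and leaving out each library. DAP3 was a member by the rule, and the choice to give its values in every library was made after they were seen. For other lists up to 2 called genes in each direction are named, and TFB1M, ERAL1, FASTKD2, RBFA, MTIF2 and the neighbours were also named after theirs were seen.

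Exon lengths, overlaps and neighbours came from GENCODE v29 (GRCh38), promoters from RefSeq. Depth was recovered from the steps of FPKM in miRNA genes, and 91.5 to 92.0% of values of at most 20 reads were within 0.1 of a whole read (20.0% expected by chance). Chi-square per degree of freedom between libraries was 2.18 to 7.20 within groups, so no library was a copy. The fit was tested on simulated data.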

Additional observations from a re-analysis of the deposited data

How the results depend on the processing

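Of the 23 members called higher, 16 kept their call in each of the 13 other settings that tested them, and 7 lost it in at least 1 (MRPS5, MRPS18B, MRPS18C, MRPS21, MRPS22, MRPS25 and MRPS28). The count of members higher was 18 to 24 over all settings and 18 to 21 without 1 library, lowest without siNC replicate 3. The count of members lower was 0 without a filter, 3 after quantile scaling, 2 under sample weights and 0 to 2 when 1 library was left out. With a stricter filter (mean of at least 5 FPKM) 1607 of 7272 tested genes were lower, against 2707 of 12020 in the main fit, so fewer genes could be called. Assembly genes higher numbered 3 after quantile scaling, 2 under sample weights and 1 to 3 when 1 library was left out, and cytosolic small subunit genes higher 1 to 7 without 1 library. The cause of the moves in the lists was not tested. Signs turned only for genes with a fold change close to 0. MRPS33 had a main value of -0.0048 and gave -0.0486 to 0.0199 without 1 library. MRPS34 had a main value of 0.0111 and gave -0.0968 with quantile scaling, -0.0105 with sample weights, -0.0301 to 0.0459 without 1 library. ERAL1 had a main value of 0.0255 and gave -0.0390 with quantile scaling. TRMT2B had a main value of -0.0231 and gave -0.0565 to 0.0091 without 1 library. C12orf65 had a main value of 0.0173 and gave -0.0155 with sample weights, -0.0145 to 0.0448 without 1 library. With a pseudocount of 0.1 the log2 fold change of PPARGC1A was -1.14, against -0.51. No scaling moved the median of all genes by 0.1. Single members moved more under quantile scaling. MRPS26 went from 0.354 to 0.248 and MRPS21 from 0.108 to 0.030, while MRPS17, a member with a low level, went from 0.324 to 0.374. The median over the members was 0.19 with this scaling, against 0.22.

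Deviations of same-numbered libraries correlated at 0.08, 0.26 and -0.06 for numbers 1, 2 and 3. With so few libraries these values cannot decide whether the numbers pair them, and the labels do not state it. Libraries did not all correlate best with their own number. With a replicate block, 23 members were higher, all of them the same genes, and 1 lower. Assembly genes higher were 2 and cytosolic small subunit genes higher were 4 with the block. Depth limits MRPS17, MRPS24 and MRPS28, the members with the fewest reads.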
